A study of Mus musculus with 12 samples.

Results

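The genes described here are 56 that act in mitosis and cytokinesis, taken from a named list that holds mitotic cyclins and kinases, condensin subunits, the chromosomal passenger complex, kinetochore and spindle checkpoint proteins, mitotic kinesins, spindle proteins and cytokinesis factors. The list was drawn up from known function and not by a threshold on these data, although results of the same data were known when it was chosen. All 56 had a row in both count tables and all passed the filter on low counts, among 13347 genes tested in PSC4 and 13236 in KPC4. Their counts were high, with at least 502 reads in every PSC4 library and at least 163 in every KPC4 library. Counting error was thus small, though not beside the spread between replicates of every member.

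PSC4 is a mouse pancreatic stellate cell line, a model of the stromal cells that surround pancreatic tumours, and KPC4 is a mouse pancreatic adenocarcinoma line. In the first step KPC4 cells received vehicle or 10 µM gemcitabine, a nucleoside analogue that blocks DNA synthesis, for 6 h and, once washed, stayed in starvation medium for 14 h. That supernatant is Control-SU or Gem-SU, in which PSC4 cells spent 24 h. For the second step PSC4 cells met one of these supernatants for 6 h and, washed in their turn, stayed in fresh starvation medium for 18 h, and KPC4 cells spent 24 h in the resulting Control-PSC-SU or Gem-PSC-SU. Each of these 4 groups had 3 biological replicates, 12 libraries in all. Every group, controls included, was thus measured in medium that other cells had conditioned under starvation, and each cell type was represented by 1 line.

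Mitosis is driven by cyclin B and its kinase CDK1, together with the Aurora and Polo-like kinases, which condense the chromosomes, build the spindle and attach it to the kinetochores. The spindle checkpoint holds the anaphase-promoting complex in check until every chromosome is attached, after which securin and cyclin B are degraded, the sister chromatids part and the cell is cleaved. Transcripts of these proteins accumulate in G2 and mitosis and are low in resting cells, so that together they serve as a common readout of proliferation. Many of their promoters carry a short element near the transcription start, the cell cycle genes homology region or CHR, often with CCAAT boxes upstream of it. MuvB-based complexes bind the CHR, as a repressor in resting or arrested cells (DREAM) and as an activator with B-Myb and FoxM1 in dividing cells.

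RefSeq promoters (mouse build GRCm38.p6, 250 bases before to 50 after the start) were matched by symbol to 48 of the 56 genes, and the CHR letters TTTGAA or TTCGAA, on either strand, were found in 39 of them, or 81.2% (Wilson 95% interval 68.1 to 89.8). The same letters were in 19.4% of all 27025 promoters in that table and in 14.1% of those of genes tested in PSC4. The CCAAT letters, on either strand, were in 70.8% of member promoters and 37.9% of all promoters, and CHR and CCAAT together in 66.7% and 7.70%. An E2F-like site (TTTC or TTTG followed by GCGC, or TTTCC followed by CGC, on either strand), typical of genes of the G1/S transition, was in 10.4% of member promoters and 1.91% of all. Among genes tested in PSC4 its share was 3.58%, and that of CCAAT 39.5%. Of 21 promoters of G1/S and S phase genes, 19.0% held the CHR, 66.7% CCAAT and 38.1% an E2F-like site. Of 99 promoters of further mitosis genes, 41.4% held the CHR, 59.6% CCAAT and 9.09% an E2F-like site. The CCAAT share was thus not particular to the members. On the opposite strand the CHR reads TTCAAA or TTCGAA and the CCAAT box ATTGG, and matches of different motifs that shared bases were each counted. In 34 of the 48 promoters (70.8%, against 5.29% of all promoters) a CHR match began within 50 bases of the start. Promoters were read as letters only, and no binding was measured.

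The stretches below are shown because their genes took different courses in PSC4 while carrying the same element. Each runs over the 100 bases before the start, written 5′ to 3′ on the strand of the gene, with CHR and CCAAT matches of either orientation in capitals. Cdc20 (chr4:118437344-118437443, minus strand), Ncapg (chr5:45669825-45669924, plus strand), Kif15 (chr9:122950981-122951080, plus strand) and Kif11 (chr19:37376282-37376381, plus strand) rose in PSC4 with Gem-SU. Cdk1 (chr10:69352913-69353012, minus strand) and Top2a (chr11:99024190-99024289, minus strand) did not pass the test there, and Ube2c (chr2:164769829-164769928, plus strand) fell.
Cdc20: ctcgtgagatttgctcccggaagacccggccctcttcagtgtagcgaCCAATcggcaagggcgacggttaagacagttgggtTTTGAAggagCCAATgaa
Ncapg: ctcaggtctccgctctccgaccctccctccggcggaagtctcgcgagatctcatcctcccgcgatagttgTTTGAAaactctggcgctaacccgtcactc
Kif15: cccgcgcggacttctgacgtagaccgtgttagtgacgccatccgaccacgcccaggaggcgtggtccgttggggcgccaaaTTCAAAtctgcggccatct
Kif11: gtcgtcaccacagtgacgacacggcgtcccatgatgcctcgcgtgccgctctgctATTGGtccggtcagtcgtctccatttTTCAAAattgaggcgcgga
Cdk1: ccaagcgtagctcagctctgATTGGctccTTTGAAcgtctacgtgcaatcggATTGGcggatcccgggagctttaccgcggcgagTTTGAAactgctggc
Top2a: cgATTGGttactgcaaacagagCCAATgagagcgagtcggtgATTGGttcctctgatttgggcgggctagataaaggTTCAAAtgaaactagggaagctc
Ube2c: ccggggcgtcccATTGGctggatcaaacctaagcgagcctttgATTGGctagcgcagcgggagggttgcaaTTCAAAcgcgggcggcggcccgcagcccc

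For other members the CHR lay at or just after the start, as in these 30-base windows, with the CHR alone in capitals. The windows of Kif4 and Cenpa begin 8 and 5 bases into the transcribed stretch, and the others run across the start. Ccnb2 (chr9:70421533-70421562, minus strand) fell in PSC4, Hmmr (chr11:40733412-40733441, minus strand), Kif23 (chr9:61946780-61946809, minus strand) and Kif4 (chrX:100626072-100626101, plus strand) rose, and Cenpf (chr1:189688067-189688096, minus strand) and Cenpa (chr5:30666890-30666919, plus strand) did not pass the test.
Ccnb2: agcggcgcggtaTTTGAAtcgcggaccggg
Hmmr: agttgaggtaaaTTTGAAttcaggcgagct
Kif23: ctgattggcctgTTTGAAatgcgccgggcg
Kif4: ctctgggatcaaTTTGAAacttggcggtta
Cenpf: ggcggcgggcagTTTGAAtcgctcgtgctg
Cenpa: ggcgggtgatttTTTGAActgctggcgacc

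A CHR match was present in 21 of the 25 matched promoters of genes that rose in PSC4 (84.0%, Wilson 95% interval 65.3 to 93.6), in both promoters of the genes that fell, and in 16 of the 21 of genes that did not pass (76.2%, interval 54.9 to 89.4). The intervals overlap widely.

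**Figure D1:**
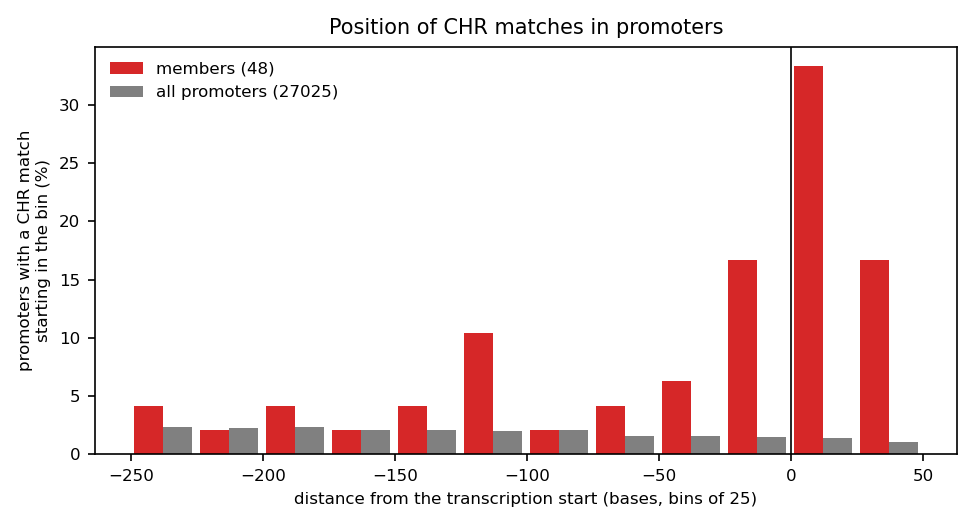
Share of promoters (%, vertical axis) with a CHR match that begins in each bin of 25 bases (horizontal axis, distance from the transcription start in bases, start marked by the line), for the 48 matched member promoters (red) and all 27025 promoters (grey). The member bars are tallest in the bins next to the start, and the bars of all promoters stay low throughout.

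Library totals lay between 29559414 and 38138356 counts in PSC4 and between 26354328 and 34744150 in KPC4. Each line carried the markers of its labelled identity. The 12 epithelial markers tested in KPC4 summed to between 6019 and 7529 CPM (counts scaled to a common library total adjusted by TMM factors), with Krt8, Krt18 and Krt19 the highest, and the 14 stellate and fibroblast markers tested in PSC4 to between 2257 and 8309 CPM, with Col1a1 the highest. KPC4 libraries differed among themselves in the mitotic genes far more than PSC4 libraries did. With Control-PSC-SU, replicate 2 was the highest of the 3 control libraries for 54 of the 56 members and replicate 1 the lowest of all 6 KPC4 libraries for 53. The median ratio of control replicate 2 to control replicate 1 was 2.90, and to control replicate 3 it was 2.23. With Gem-PSC-SU, replicate 2 was the highest of all 6 for 44 members. The median SD of a member between the control KPC4 libraries was 0.82 on the log2 scale, against 0.22 over all genes tested, while in PSC4 controls it was 0.22 against 0.24.

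The first comparison asked how mitotic transcripts of stellate cells differ between medium from gemcitabine-treated and from vehicle-treated tumour cells. In PSC4, 31 of the 56 members rose with Gem-SU and 2 fell, and 23 did not pass the test (edgeR quasi-likelihood, Benjamini-Hochberg adjusted over all genes, threshold 0.05). Of all genes tested 24.3% were called higher and 22% lower, so that the share of members called higher, 55.4%, was above that background and the share called lower, 3.57%, below it. The median log2 fold change was 0.62 over the members and -0.0032 over all genes. All 3 Gem-SU libraries lay above all 3 controls for 34 members (29.3% of all genes) and below them for 2 (27.1% of all genes). Changes were of 2-fold or more in 22 of the 33 members called. The share of all genes with such a change was not counted. In bulk RNA, a larger share of cells in G2 and mitosis and more of a transcript per cell cannot be told apart.

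Cytokinesis genes held the largest increase. Cep55 (ENSMUSG00000024989), which brings the membrane-cutting machinery to the bridge between daughter cells, measured 27.5, 39.1 and 33.1 CPM with Control-SU and 119, 137 and 152 CPM with Gem-SU, a log2 fold change 2.03 ± 0.18 (SE), edgeR adjusted p = 1.04e-04. Its lowest Gem-SU library was above its highest control. Kif23, the motor of the centralspindlin complex, stood at 96.5, 132 and 114 against 253, 289 and 333 CPM (log2 fold change 1.35 ± 0.18 (SE), edgeR adjusted p = 5.79e-04). Kif14, a kinesin of the late midbody, stood at 31.9, 57.4 and 50.3 against 69.9, 103 and 115 CPM (log2 fold change 1.04 ± 0.26 (SE), edgeR adjusted p = 0.0106). These 3 rose with no overlap between groups. Smaller increases were found for Anln (ENSMUSG00000036777), the anillin scaffold of the cleavage furrow, at 256, 323 and 331 against 414, 498 and 573 CPM (log2 fold change 0.71 ± 0.18 (SE), edgeR adjusted p = 0.0138). Kif20a (ENSMUSG00000003779), which carries the passenger complex to the spindle midzone, measured 128, 145 and 148 against 250.2, 228 and 251 CPM (log2 fold change 0.79 ± 0.14 (SE), edgeR adjusted p = 0.00223). The bundling factor of the central spindle, Prc1 (ENSMUSG00000038943), had overlapping groups at 139.5, 186 and 159 against 194, 138 and 158 CPM and a log2 fold change of 0.017 ± 0.18 (SE). Racgap1, partner of Kif23 in centralspindlin, and Ect2, the exchange factor that switches on RhoA, did not pass either, at 0.038 and 0.29. Of 8 cytokinesis genes 5 rose (24.3% of all genes) and 3 did not pass.

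Among the 7 kinesins, Kif15 (ENSMUSG00000036768), which helps to keep spindle poles apart, changed most, from 47.1, 59.8 and 53.0 CPM to 149.7, 213 and 231 CPM (log2 fold change 1.89 ± 0.20 (SE), edgeR adjusted p = 2.11e-04). Kif11 (ENSMUSG00000012443), the main motor of pole separation, moved less, at 188, 242 and 232 against 269, 333 and 398 CPM (log2 fold change 0.59 ± 0.19 (SE), edgeR adjusted p = 0.0307). Kif4 (ENSMUSG00000034311), a chromosome-borne kinesin, measured 146, 186 and 186 against 369, 403 and 457 CPM (log2 fold change 1.25 ± 0.17 (SE), edgeR adjusted p = 6.47e-04). Groups were apart for all of these, and Kif22, another chromosome-borne kinesin, also rose, by 0.88 on the log2 scale. Kif18a, which damps chromosome movement at the metaphase plate, went the other way in sign without passing, at 18.4, 30.1 and 25.7 against 16.2, 16.6 and 22.4 CPM and a log2 fold change of -0.43 ± 0.23 (SE; edgeR adjusted p = 0.159). The microtubule depolymerase Kif2c and Kif20b had log2 fold changes of 0.14 and 0.51 and overlapping groups.

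Condensin subunits, which fold chromosomes into compact rods, were called higher in 4 of 5 cases (24.3% of all genes). Ncapg (ENSMUSG00000015880), a subunit of condensin I, was at 72.5, 119 and 120.1 CPM with Control-SU and 262, 389.8 and 498 CPM with Gem-SU (log2 fold change 1.88 ± 0.28 (SE), edgeR adjusted p = 0.00105). Smc2 (ENSMUSG00000028312), the ATPase common to both condensins, was at 148, 201 and 186 against 309, 509 and 622 CPM (log2 fold change 1.43 ± 0.26 (SE), edgeR adjusted p = 0.00273). Smc4, its partner, and Ncaph, the subunit that closes the ring, rose by 0.68 and 0.46. Ncapd2 did not pass, at 0.21. All 5 had every Gem-SU library above every control, as did 29.3% of all genes.

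Of the chromosomal passenger complex, which corrects faulty attachments, the scaffold and the 2 targeting subunits rose while the kinase did not pass the test. Incenp, the scaffold, measured 86.0, 85.8 and 93.7 against 293, 323 and 317 CPM (log2 fold change 1.81 ± 0.14 (SE), edgeR adjusted p = 6.17e-05), the smallest adjusted p of any member. Birc5 (ENSMUSG00000017716), the survivin subunit, measured 53.2, 62.0 and 51.9 against 93.6, 73.2 and 85.0 CPM (log2 fold change 0.59 ± 0.15 (SE), edgeR adjusted p = 0.0122), and Cdca8, the borealin subunit, rose by 1.02. Aurkb (ENSMUSG00000020897), the kinase itself, measured 72.5, 57.7 and 71.6 against 79.8, 64.8 and 58.8 CPM, with groups that overlap and a log2 fold change of 0.011 ± 0.17 (SE). Genes of 1 complex thus spanned from 0.011 to 1.81 on the log2 scale.

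Kinetochore genes were divided in the same way. Ndc80 (ENSMUSG00000024056), the microtubule-binding subunit, measured 55.8, 61.4 and 61.8 against 123, 116 and 138 CPM (log2 fold change 1.08 ± 0.13 (SE), edgeR adjusted p = 4.78e-04). Its partner Nuf2 measured 54.1, 58.8 and 51.9 against 116, 109 and 120.4 CPM (log2 fold change 1.07 ± 0.13 (SE), edgeR adjusted p = 4.09e-04). Cenpe, the motor that brings chromosomes to the spindle equator, rose by 1.72 ± 0.35 (SE). The groups of these 3 were apart. Cenpa (ENSMUSG00000029177), the histone variant that marks centromeres, had overlapping groups at 84.6, 71.9 and 99.2 against 104, 102 and 80.9 CPM (log2 fold change 0.17 ± 0.17 (SE), edgeR adjusted p = 0.445). Cenpf (ENSMUSG00000026605), a large kinetochore and nuclear matrix protein, was spread widely within both groups at 117, 236 and 192 against 121, 198 and 249.8 CPM (log2 fold change 0.063 ± 0.31 (SE), edgeR adjusted p = 0.883). In the spindle checkpoint, Bub1 (ENSMUSG00000027379), a kinase at unattached kinetochores, measured 51.5, 69.6 and 65.0 against 126, 151 and 167 CPM (log2 fold change 1.25 ± 0.17 (SE), edgeR adjusted p = 6.98e-04), and Ttk, the kinase that starts the signal, rose by 1.18. Mad2l1 (ENSMUSG00000029910), the inhibitor that binds Cdc20, measured 89.9, 107 and 86.0 against 125, 111 and 117 CPM (log2 fold change 0.32 ± 0.14 (SE), edgeR adjusted p = 0.0894), and Bub1b stood at 0.29. Neither of the latter passed. For both, all 3 Gem-SU libraries were above the controls, as for 29.3% of all genes.

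Of the 6 mitotic cyclins and kinases, 2 rose, 1 fell and 3 did not pass, not far from the shares of all genes called (24.3% higher, 22% lower). Aurka (ENSMUSG00000027496), the kinase of centrosome maturation, measured 54.0, 65.8 and 64.6 CPM with Control-SU and 152, 139 and 138 CPM with Gem-SU (log2 fold change 1.22 ± 0.14 (SE), edgeR adjusted p = 3.34e-04). Ccna2 (ENSMUSG00000027715), cyclin A of S phase and G2, measured 194, 249.7 and 225 against 405, 422 and 449 CPM (log2 fold change 0.93 ± 0.16 (SE), edgeR adjusted p = 0.00180). Both were higher in every Gem-SU library than in any control. Ccnb1 (ENSMUSG00000041431), the principal mitotic cyclin, measured 112, 114 and 131 against 128, 144 and 157 CPM (log2 fold change 0.27 ± 0.14 (SE), edgeR adjusted p = 0.157). Cdk1 (ENSMUSG00000019942), the kinase it activates, measured 141, 96.8 and 133 against 164, 111 and 120.2 CPM (log2 fold change 0.092 ± 0.20 (SE), edgeR adjusted p = 0.737). Plk1 (ENSMUSG00000030867), the Polo-like kinase, measured 59.3, 58.5 and 69.2 against 61.0, 60.8 and 60.1 CPM (log2 fold change -0.040 ± 0.13 (SE), edgeR adjusted p = 0.825). These 3 did not pass and their groups overlapped. Ccnb2 (ENSMUSG00000032218), a B-type cyclin close to Ccnb1, fell in all 3 libraries, from 113, 109.9 and 116 CPM to 63.1, 51.4 and 49.4 CPM (log2 fold change -1.05 ± 0.14 (SE), edgeR adjusted p = 6.90e-04).

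Genes of anaphase onset and exit were split too, with 2 of 5 called higher and 1 lower. With so few genes this is not far from the shares of all genes called (24.3% and 22%). Cdc20 (ENSMUSG00000006398), which activates the anaphase-promoting complex, measured 69.8, 51.2 and 71.4 against 147, 141 and 94.7 CPM (log2 fold change 0.99 ± 0.21 (SE), edgeR adjusted p = 0.00523). Espl1, the protease separase that cuts cohesin, rose by 1.37 ± 0.21 (SE). Ube2c (ENSMUSG00000001403), the ubiquitin-conjugating enzyme that works with the same complex, fell, at 106, 140.4 and 112 against 72.1, 61.7 and 72.7 CPM (log2 fold change -0.79 ± 0.16 (SE), edgeR adjusted p = 0.00387). Every Ube2c value with Gem-SU was below every control. Pttg1, the securin that holds separase inactive, stood at 0.13 and Cdca3, a trigger of mitotic entry, at -0.33, neither past the test.

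Of the proliferation markers, Mki67 (ENSMUSG00000031004), which coats mitotic chromosomes, measured 416, 1025 and 734 CPM with Control-SU and 1260.3, 2096 and 2748 CPM with Gem-SU (log2 fold change 1.49 ± 0.38 (SE), edgeR adjusted p = 0.0123). Top2a (ENSMUSG00000020914), the topoisomerase that untangles sister chromatids, measured 747, 1061 and 964 against 943, 849.8 and 979 CPM, with a log2 fold change of 8.7e-05 ± 0.19 (SE). The first rose with groups apart, while the Top2a groups covered the same range. Cdca2, which brings a phosphatase to chromatin at anaphase, rose by 1.36. Among the 9 spindle and centrosome proteins, 4 rose (24.3% of all genes). Hmmr (ENSMUSG00000020330), a spindle assembly factor, measured 85.1, 132 and 121 against 212, 299 and 376 CPM (log2 fold change 1.39 ± 0.25 (SE), edgeR adjusted p = 0.00241). Tpx2 (ENSMUSG00000027469), the activator of Aurora A on spindle microtubules, measured 199.8, 312 and 238 against 384, 388 and 403 CPM (log2 fold change 0.65 ± 0.19 (SE), edgeR adjusted p = 0.0210). Spag5, the kinetochore and spindle protein astrin, and Depdc1a rose by 1.79 and 1.59. The 5 that did not pass were Nusap1 (-0.019), Dlgap5 (-0.0032), Ccdc18 (0.15), Prr11 (0.32) and Aspm (-0.27).

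Of the 23 members that did not pass in PSC4, 9 had a log2 fold change within 0.1 of 0, with standard errors between 0.13 and 0.38 over all members. With the replicate number as a block, 32 members rose (27.9% of all genes) and 2 fell (26.6% of all genes). Leaving out 1 library kept the number called between 28 (without Control-SU 3 or Gem-SU 3, with 34.7% and 35.5% of all genes called in either direction) and 35 (without Gem-SU 1, 49.9%). Among the members followed through every alternative (25 named whatever their change, with Cep55, Kif15 and Ccnb2), the calls lost without 1 library were those of Kif11 (without any of Control-SU 1, 2 and 3 or Gem-SU 2 and 3), Tpx2 (without Control-SU 1 or 3 or Gem-SU 2 or 3), Anln (without Gem-SU 2 or 3) and Birc5 (without Control-SU 3), with edgeR adjusted p between 0.0513 and 0.107. One fit of all 12 libraries, which takes 1 spread per gene for both lines, called 23 members (40.1% of all genes). The fit of PSC4 alone called 33 (46.3%). In the authors' deposited table for PSC4, 31 members were listed as higher (22.4% of all genes) and 2 as lower (20.5% of all genes) with an adjusted p under 0.05. The genes were not all the same. Tpx2, called higher here, did not pass there (DESeq2 adjusted p = 0.0943), and Mad2l1, not called here, passed there (DESeq2 adjusted p = 0.0354).

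**Figure D2:**
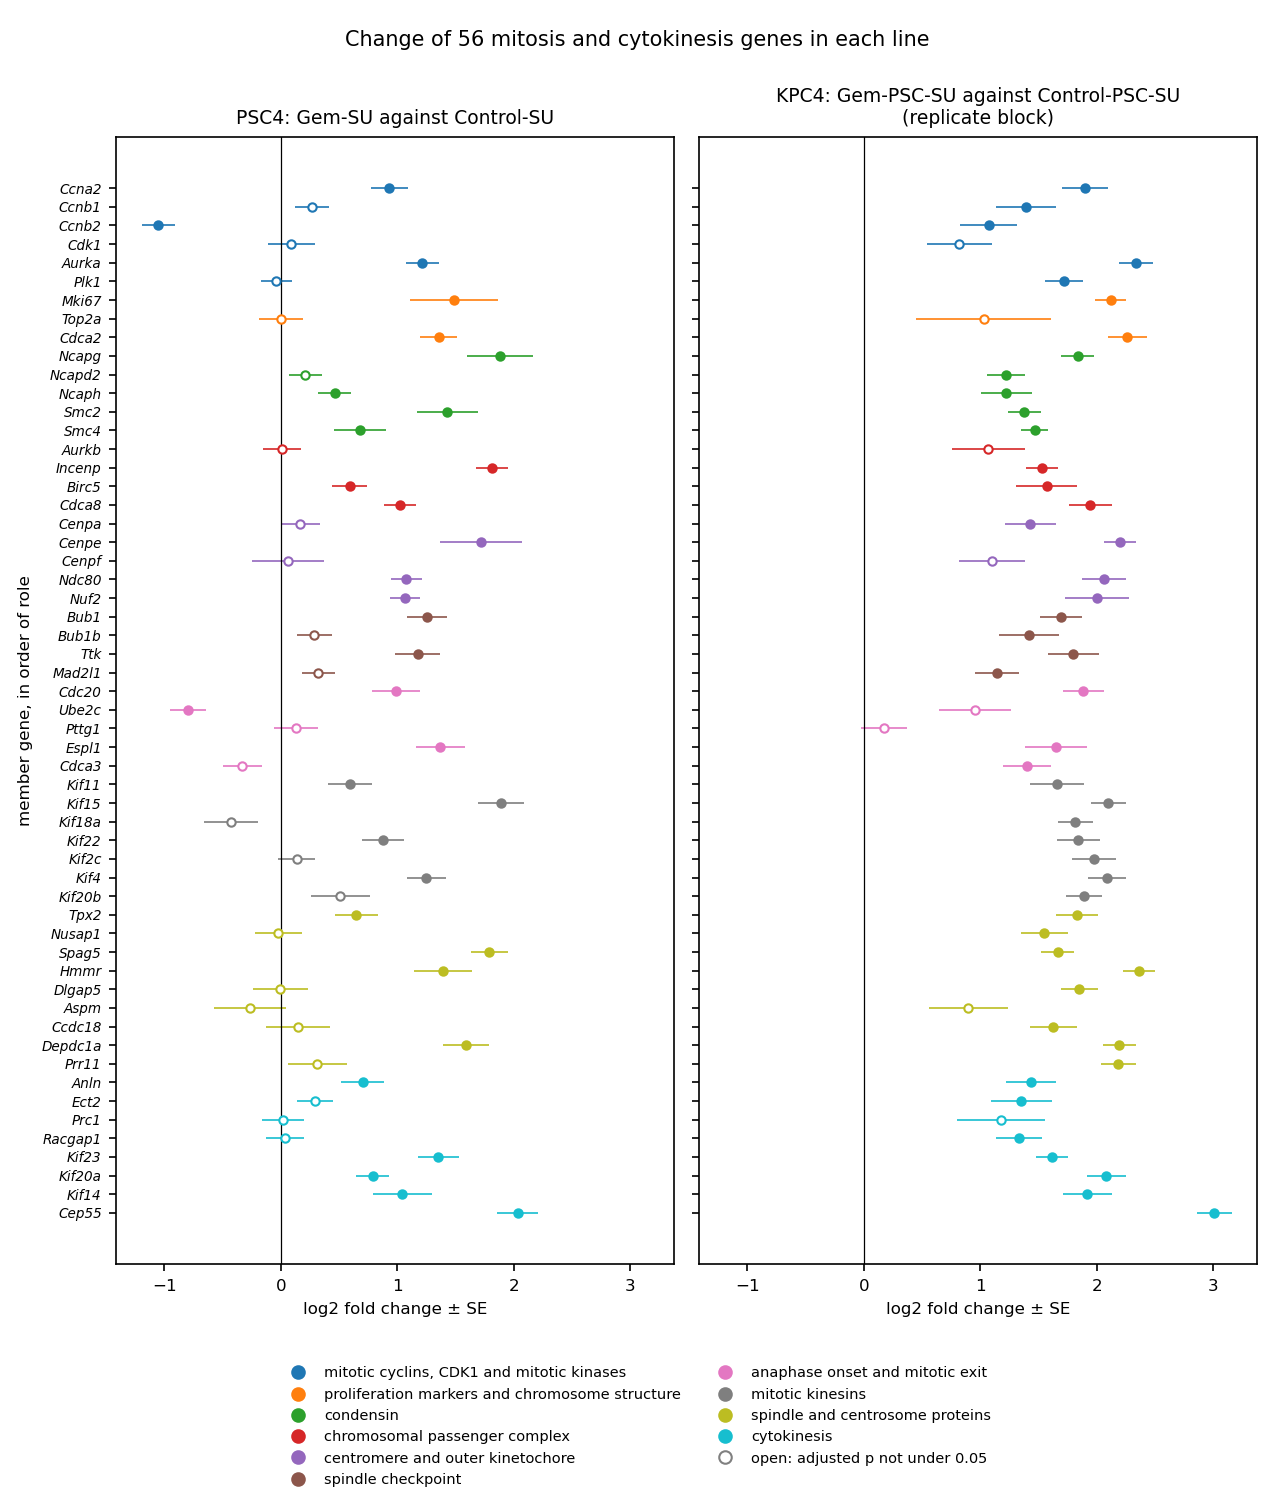
Log2 fold change with its standard error (horizontal axis) for each of the 56 members (vertical axis, coloured by role), in PSC4 (left) and in KPC4 with the replicate block (right); filled points have an edgeR adjusted p under 0.05. In PSC4 the points run from -1.05 for Ccnb2 to 2.03 for Cep55, and in KPC4 all lie above 0, from 0.17 for Pttg1 to 3.01 for Cep55.

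The second comparison asked how mitotic transcripts of tumour cells differ between media of stellate cells that had met Gem-SU and Control-SU. In KPC4 all 56 members had a higher mean with Gem-PSC-SU. Their median log2 fold change was 1.59, against -0.019 over all genes. Without the replicate block none of them passed the threshold in edgeR's test, where 0% of all genes did. The smallest adjusted p was 0.106, and 52 members had an unadjusted p under 0.05 (17% of all genes). With the replicate number as a block, 48 members rose, 0 fell and 8 did not pass, while 6.07% of all genes were called higher and 2.78% lower, and the median was 1.66. DESeq2 called 45 members higher without the block (6.22% of all genes in either direction) and 53 with it (16.5%), and 1 edgeR fit of all 12 libraries called 41 (4.47%). That fit takes 1 spread per gene for both lines, so its count also draws on the PSC4 libraries. The median SD of a member between control libraries was 0.82 in KPC4 and 0.22 in PSC4 on the log2 scale. All 3 Gem-PSC-SU libraries lay above all 3 controls for 45 members, as for 11.8% of all genes, and below them for 0 (10.9% of all genes). In 54 members the Gem-PSC-SU library exceeded the control of the same number in all 3 pairs (24.9% of all genes).

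The labels do not say that equal numbers share a culture or a day. The block rests on the values: same-numbered libraries deviated together from their group means. These are the same counts that the blocked test uses, so the pairing has no independent support. Over the members, the median difference within pairs was 2.09 for replicate 1, 1.33 for replicate 2 and 1.75 for replicate 3 on the log2 scale. These values do not bear on the pairing. The lowest Gem-PSC-SU library mean of the members, 1.37 relative to the control mean, was above the highest control library mean, 0.86. Any pairing of the libraries would thus give mean differences above 0. Without control replicate 2 and with no block, 46 members passed (1.29% of all genes) with a median of 2.20, and without Gem-PSC-SU replicate 1, 28 passed (8.3% of all genes). Leaving out any of the other 4 libraries left 0. In the blocked test, leaving out replicate number 3 in both groups left 13 members past the threshold (0.334% of all genes), and leaving out number 1 or 2 gave 50 (22.9%) and 55 (9.87%).

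**Figure D3:**
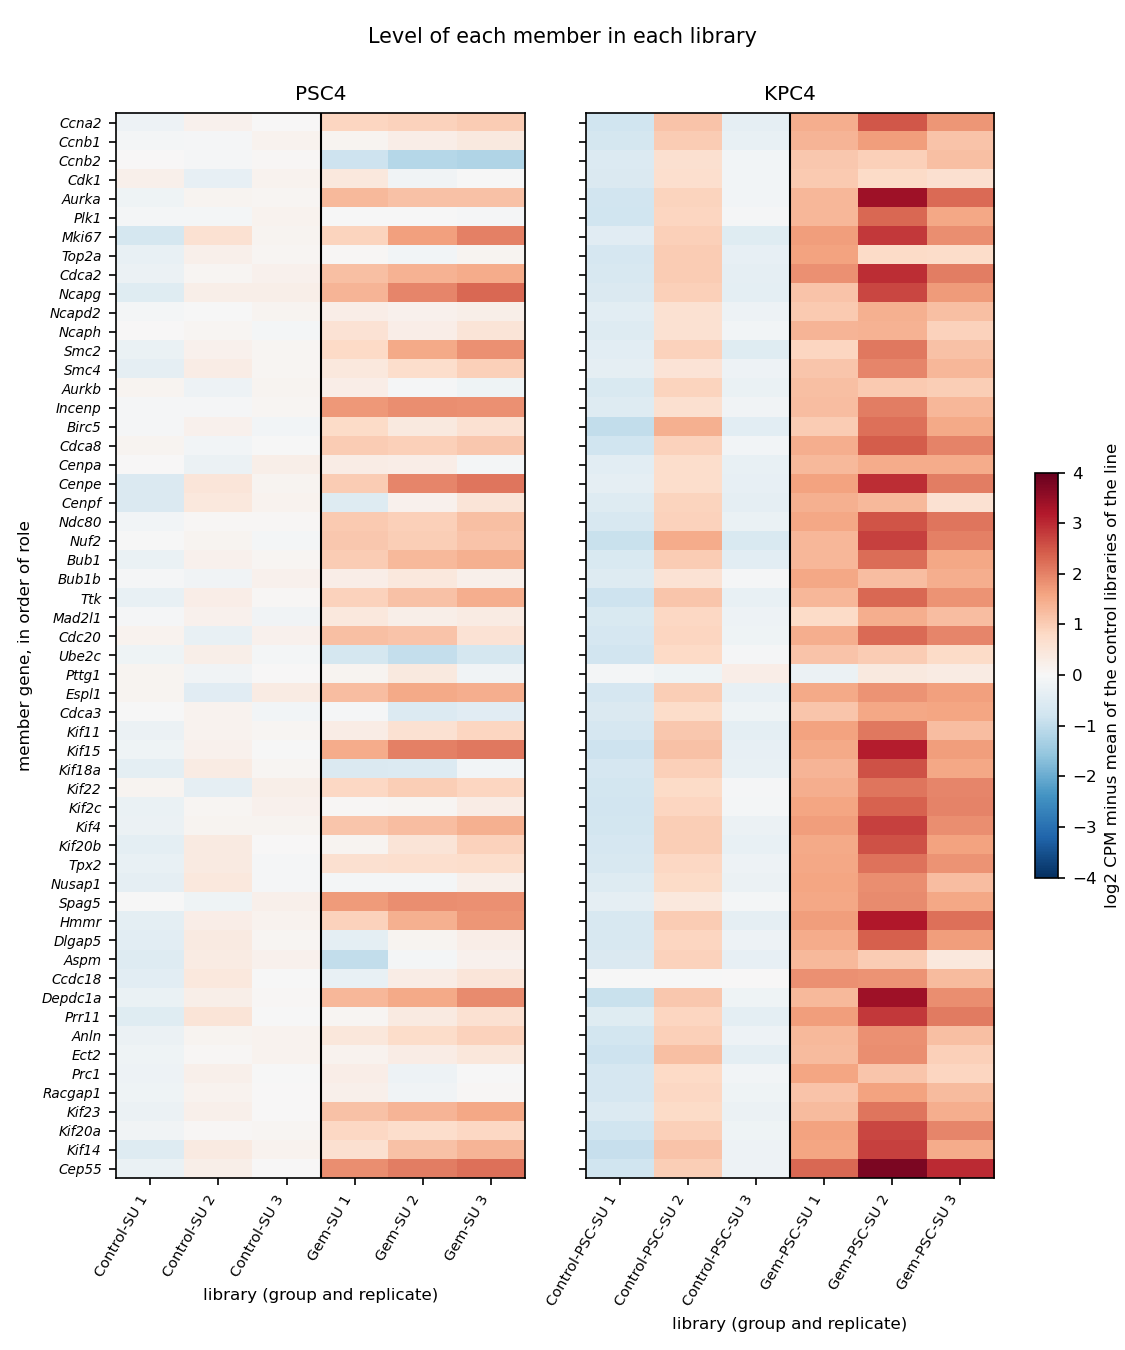
Log2 CPM of each member (rows, in order of role) in each of the 6 libraries of a line (columns), relative to the mean of the control libraries of that line, on a colour scale from -4 (blue) to 4 (red). PSC4 (left) shows rows of raised, level and lowered members, and KPC4 (right) shows whole columns that differ, with control replicate 2 above and control replicate 1 below the other controls.

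Cep55 again changed most. It measured 12.7, 43.3 and 19.3 CPM with Control-PSC-SU and 107, 297 and 175 CPM with Gem-PSC-SU (log2 fold change 3.01 ± 0.15 (SE) and edgeR adjusted p = 2.35e-04 with the replicate block, 2.94 ± 0.51 and adjusted p = 0.112 without), and its lowest Gem-PSC-SU library was above its highest control. The next largest changes of the blocked fit belonged to Hmmr, at 34.0, 109 and 41.2 against 169, 496 and 248 CPM (log2 fold change 2.36 ± 0.14 (SE) and edgeR adjusted p = 5.29e-04 with the replicate block, 2.31 ± 0.52 and adjusted p = 0.124 without), and to Aurka, at 16.3, 52.0 and 25.6 against 69.9, 295 and 135 CPM (log2 fold change 2.34 ± 0.15 (SE) and edgeR adjusted p = 5.29e-04 with the replicate block, 2.41 ± 0.57 and adjusted p = 0.124 without). All 3 had also risen in PSC4.

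Of the 23 members that did not pass in PSC4, 16 rose in KPC4 with the block. Plk1 measured 18.8, 58.7 and 31.1 against 81.1, 159 and 95.6 CPM (log2 fold change 1.72 ± 0.17 (SE) and edgeR adjusted p = 0.00157 with the replicate block, 1.63 ± 0.42 and adjusted p = 0.140 without). Ccnb1 measured 38.6, 127 and 51.2 against 163, 202 and 139 CPM (log2 fold change 1.39 ± 0.26 (SE) and edgeR adjusted p = 0.0262 with the replicate block, 1.22 ± 0.41 and adjusted p = 0.204 without), with control replicate 2 just under the lowest Gem-PSC-SU value. Cenpa, the centromeric histone, measured 20.9, 45.9 and 22.8 against 69.0, 78.7 and 79.0 CPM (log2 fold change 1.43 ± 0.22 (SE) and edgeR adjusted p = 0.0105 with the replicate block, 1.34 ± 0.30 and adjusted p = 0.124 without). Mad2l1 stood at 28.5, 78.2 and 38.0 against 74.7, 119.5 and 102 CPM (log2 fold change 1.14 ± 0.19 (SE) and edgeR adjusted p = 0.0144 with the replicate block, 1.04 ± 0.36 and adjusted p = 0.217 without), and its control replicate 2 overlapped the Gem-PSC-SU group. Ccnb2, which fell in PSC4, measured 23.3, 52.7 and 31.5 against 70.7, 66.0 and 77.2 CPM (log2 fold change 1.07 ± 0.25 (SE) and edgeR adjusted p = 0.0405 with the replicate block, 0.99 ± 0.29 and adjusted p = 0.166 without), so its 3 control values were all below its 3 Gem-PSC-SU values.

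With the block, all 31 members that rose in PSC4 rose in KPC4 as well, where 48 of all 56 members (85.7%) did. Without the block 0 members passed in KPC4. Ccna2 measured 32.4, 123 and 43.8 against 152, 312 and 191 CPM (log2 fold change 1.90 ± 0.19 (SE) and edgeR adjusted p = 0.00189 with the replicate block, 1.72 ± 0.49 and adjusted p = 0.162 without). Mki67 measured 191, 512 and 189 CPM with Control-PSC-SU and 842, 1893 and 950.0 CPM with Gem-PSC-SU (log2 fold change 2.12 ± 0.14 (SE) and edgeR adjusted p = 5.29e-04 with the replicate block, 2.05 ± 0.46 and adjusted p = 0.124 without). Bub1 measured 34.7, 106 and 39.4 against 132, 245 and 152 CPM (log2 fold change 1.69 ± 0.18 (SE) and edgeR adjusted p = 0.00223 with the replicate block, 1.56 ± 0.44 and adjusted p = 0.162 without). In each of these control replicate 2 was the highest control and Gem-PSC-SU replicate 2 the highest library. Ndc80 at the kinetochore measured 11.4, 33.9 and 14.7 against 52.5, 102 and 78.0 CPM (log2 fold change 2.06 ± 0.19 (SE) and edgeR adjusted p = 0.00133 with the replicate block, 1.96 ± 0.42 and adjusted p = 0.117 without). Cdc20, the activator of the anaphase-promoting complex, measured 25.3, 72.2 and 35.6 against 109, 193 and 156 CPM (log2 fold change 1.89 ± 0.18 (SE) and edgeR adjusted p = 0.00142 with the replicate block, 1.78 ± 0.39 and adjusted p = 0.117 without). Birc5 of the passenger complex measured 8.10, 43.0 and 12.2 against 32.7, 73.9 and 46.6 CPM (log2 fold change 1.57 ± 0.26 (SE) and edgeR adjusted p = 0.0158 with the replicate block, 1.28 ± 0.58 and adjusted p = 0.308 without), and here control replicate 2 exceeded the lowest Gem-PSC-SU library.

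Kinesins passed in 7 of 7 cases with the block (6.07% of all genes called higher), between 1.66 for Kif11 and 2.10 for Kif15. Kif11 measured 36.4, 124 and 44.2 against 179.9, 254 and 138 CPM (log2 fold change 1.66 ± 0.24 (SE) and edgeR adjusted p = 0.00942 with the replicate block, 1.48 ± 0.45 and adjusted p = 0.175 without). Kif4 measured 22.4, 73.8 and 32.3 against 120.2, 251 and 137 CPM (log2 fold change 2.09 ± 0.16 (SE) and edgeR adjusted p = 7.61e-04 with the replicate block, 1.98 ± 0.46 and adjusted p = 0.124 without). Kif20a measured 33.6, 113 and 51.1 against 178, 367 and 225 CPM (log2 fold change 2.08 ± 0.17 (SE) and edgeR adjusted p = 7.61e-04 with the replicate block, 1.96 ± 0.45 and adjusted p = 0.124 without). None of these had overlapping groups. The 5 condensin subunits all passed with the block, between 1.22 for Ncapd2 and 1.84 for Ncapg. Ncapg stood at 28.0, 82.2 and 32.4 against 93.5, 268 and 136 CPM (log2 fold change 1.84 ± 0.14 (SE) and edgeR adjusted p = 7.61e-04 with the replicate block, 1.80 ± 0.49 and adjusted p = 0.156 without), and Smc2 at 62.2, 156 and 59.2 against 150.3, 359 and 187 CPM (log2 fold change 1.38 ± 0.14 (SE) and edgeR adjusted p = 0.00196 with the replicate block, 1.33 ± 0.44 and adjusted p = 0.204 without). The Smc2 groups overlapped through control replicate 2. Tpx2 on the spindle measured 54.6, 152 and 74.0 against 248, 379.7 and 293 CPM (log2 fold change 1.83 ± 0.18 (SE) and edgeR adjusted p = 0.00172 with the replicate block, 1.72 ± 0.36 and adjusted p = 0.115 without), and Anln in the cleavage furrow 72.3, 236 and 105 against 295, 431 and 279 CPM (log2 fold change 1.43 ± 0.22 (SE) and edgeR adjusted p = 0.0114 with the replicate block, 1.28 ± 0.41 and adjusted p = 0.185 without). Both had all Gem-PSC-SU libraries above the controls.

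The 8 members that did not pass even with the block were Cdk1, Top2a, Aurkb, Cenpf, Ube2c, Pttg1, Aspm and Prc1, with log2 fold changes between 0.17 and 1.18 and edgeR adjusted p between 0.0615 and 0.587. Cdk1 measured 29.2, 68.4 and 40.4 against 90.1, 72.9 and 68.1 CPM (log2 fold change 0.82 ± 0.28 (SE) and edgeR adjusted p = 0.108 with the replicate block, 0.74 ± 0.30 and adjusted p = 0.263 without). Top2a measured 173, 563 and 221 against 843, 469.6 and 460.1 CPM (log2 fold change 1.03 ± 0.58 (SE) and edgeR adjusted p = 0.325 with the replicate block, 0.89 ± 0.44 and adjusted p = 0.342 without). Aurkb measured 13.3, 38.2 and 17.0 against 47.2, 42.1 and 40.7 CPM (log2 fold change 1.07 ± 0.31 (SE) and edgeR adjusted p = 0.0791 with the replicate block, 0.92 ± 0.36 and adjusted p = 0.251 without). In all 3 Gem-PSC-SU replicate 1 was the highest of its group, as in 9 of the 56 members, whereas it was the lowest in 38. Cenpf measured 43.1, 115 and 48.0 against 164, 151 and 94.7 CPM (log2 fold change 1.10 ± 0.28 (SE) and edgeR adjusted p = 0.0615 with the replicate block, 0.99 ± 0.39 and adjusted p = 0.248 without). Prc1 measured 45.0, 125 and 67.4 against 216, 158 and 132 CPM (log2 fold change 1.18 ± 0.38 (SE) and edgeR adjusted p = 0.114 with the replicate block, 1.09 ± 0.36 and adjusted p = 0.202 without). Ube2c measured 32.1, 93.9 and 52.7 against 118, 108 and 91.7 CPM (log2 fold change 0.95 ± 0.31 (SE) and edgeR adjusted p = 0.105 with the replicate block, 0.83 ± 0.35 and adjusted p = 0.272 without). Pttg1 was nearly level at 15.6, 14.6 and 19.7 against 14.1, 21.8 and 21.0 CPM. None of these 8 had risen in PSC4 either, where Ube2c fell and the other 7 did not pass. In the authors' deposited table for KPC4, 41 members were listed as higher (4.49% of all genes) and 0 as lower (0.682% of all genes) with an adjusted p under 0.05.

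The difference between the responses of the lines was tested as an interaction in 1 fit of all 12 libraries, as the log2 change in PSC4 minus that in KPC4, and cell line, medium and step of the transfer cannot be told apart in it. Of the 56 members, 11 had a lower log2 change in PSC4 than in KPC4, 0 a higher one, and 45 did not pass, while 5.1% of all genes tested were called lower and 4.75% higher in PSC4. The median difference was -0.91 over the members and -0.094 over all genes. With the block, 35 members had a lower change in PSC4 (12% of all genes) and 0 a higher one (9.95%). That fit paired PSC4 libraries by number as well, although same-numbered PSC4 libraries did not all deviate together (r = 0.428, -0.0548 and 0.102 over all genes). DESeq2 called 14 (15.8% of all genes in either direction). Of the 11 members, 2 fell in PSC4 and 9 did not pass there, and all 11 also passed with the block. They ranged from -2.21 to -1.12.

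Kif18a differed most, by -2.21 ± 0.56 (SE; edgeR adjusted p = 0.0264, and -2.28 ± 0.25 with adjusted p = 1.90e-04 with the block). In KPC4 it measured 13.3, 40.8 and 17.4 against 54.3, 123 and 62.0 CPM, where all Gem-PSC-SU libraries were above the controls, while in PSC4 2 of the 3 Gem-SU libraries were below every control. Ccnb2, which fell in PSC4, differed by -2.09 ± 0.35 (edgeR adjusted p = 0.00305, and 8.87e-04 with the block). Prr11, a G2 and mitosis gene, differed by -1.85 ± 0.54 (edgeR adjusted p = 0.0457, and 4.29e-04 with the block), with 53.3, 107 and 74.2 against 80.0, 96.8 and 115 CPM in PSC4 and 26.9, 68.4 and 28.8 against 119, 268 and 157 CPM in KPC4. Its groups overlapped in the former and not in the latter. The other 8 were Dlgap5, Kif2c, Plk1, Cdca3, Ube2c, Ccdc18, Nusap1 and Bub1b. At the other end, Incenp (0.28 ± 0.38), Spag5 (0.11 ± 0.28), Smc2 (0.065 ± 0.56) and Ncapg (0.047 ± 0.61) were the 4 members with a difference above 0, with adjusted p of 0.690 to 0.973, which does not show that the lines responded alike. Without 1 library the count of 11 became 2 (PSC4 Control-SU 2, Gem-SU 2 or KPC4 Control-PSC-SU 3), 4 (Control-SU 3), 5 (Control-PSC-SU 1), 6 (Gem-SU 3 or Gem-PSC-SU 3), 7 (Gem-SU 1 or Gem-PSC-SU 2) or 36 (Control-PSC-SU 2). In the same order the share of all genes called in either direction was 6.53%, 4.41% and 5.63%, 5.86%, 6.73%, 5.87% and 5.99%, 12.5% and 14.5%, and 7.59%. These shares take both directions, whereas every member counted had the lower change in PSC4. Where the count was 2 of 56, the members' share was below that of all genes. Where the count was 7 of 56, the members' share was about equal to that of all genes without Gem-SU 1 and below it without Gem-PSC-SU 2. Without Control-SU 1 or Gem-PSC-SU 1 the count was 9 (6.91% and 9.75% of all genes).

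**Figure D4:**
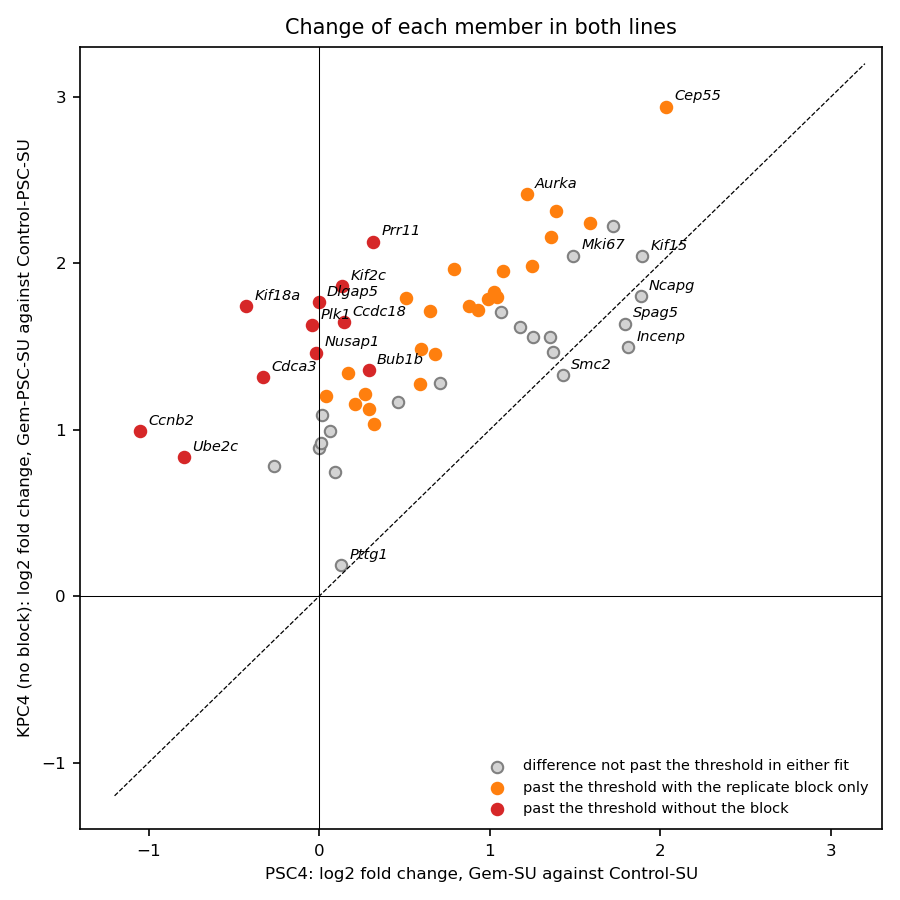
Log2 fold change of each member in PSC4 (horizontal axis) and in KPC4 without the block (vertical axis), with the dashed line marking equal change. All but 4 of the 56 points lie above the line; red points are the 11 whose difference passed without the block, and orange points passed only with it.

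Control levels differed between the lines as well. In the fit of all 12 libraries, 34 members were lower in control KPC4 than in control PSC4 and 0 were higher, with 22.3% of all genes called lower and 20.6% higher, and the median log2 difference was -1.08 against -0.039 over all genes. The 3 largest differences were those of Nuf2 (-2.22 ± 0.51, SE; edgeR adjusted p = 0.00318), Kif4 (-2.00 ± 0.38; edgeR adjusted p = 7.48e-04) and Kif14 (-1.77 ± 0.47; edgeR adjusted p = 0.00765). This comparison, the difference between the lines and the comparisons within each line share their control libraries. On the scale common to both lines, Nuf2 averaged 55.5 CPM ± 3.10 (SD, n = 3) in control PSC4 and 11.9 CPM ± 11.5 in control KPC4, and reached 113 CPM ± 5.27 and 38.7 CPM ± 17.5 with the media of the gemcitabine arm. Mean levels with Gem-PSC-SU in KPC4 were above those of control PSC4 for 39 of 56 members and below those of Gem-SU PSC4 for 32. The count of 34 became 18, 52 and 19 without Control-PSC-SU 1, 2 and 3 (36.6%, 39.3% and 35.8% of all genes called in either direction) and 20 without PSC4 Control-SU 2 (38.5%). The control media also differed, so that line and medium cannot be told apart.

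Other genes of the same processes are given beside the shares of all genes called, which were 24.3% higher and 22% lower in PSC4 and 6.07% higher and 2.78% lower in KPC4 with the block. Of 119 further mitosis genes, 64 rose and 13 fell in PSC4, with a median log2 fold change of 0.57 against -0.0032 over all genes. In KPC4 with the block 64 rose and 1 fell, with a median of 0.82 against -0.030 over all genes. The 34 further kinetochore and inner centromere genes held 25 that rose in PSC4 and 25 in KPC4 with the block, with 0 that fell in either. The genes with the smallest p in PSC4 were Spdl1 (log2 fold change 1.99 ± 0.14, SE), which recruits dynein to kinetochores, Spc25 (1.77 ± 0.13), of the NDC80 complex, and Cenpu (2.18 ± 0.18), of the inner kinetochore. In KPC4, where none of these lists held a gene called without the block, the smallest p of the unblocked test belonged to Hjurp (1.40 ± 0.13 with the block), the chaperone of the centromeric histone, Spdl1 (2.31 ± 0.17) and Cenpl (1.92 ± 0.22).

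Of the 15 genes of the anaphase-promoting complex, 3 rose and 3 fell in PSC4, near the shares of all genes called there (24.3% higher, 22% lower), with a median of -0.12. With the block, 2 rose and 0 fell in KPC4 (6.07% and 2.78% of all genes). Anapc2 (-0.89 ± 0.13, SE) and Cdc26 (-1.24 ± 0.21) fell and Anapc7 (0.81 ± 0.14) rose in PSC4. In KPC4 the smallest p belonged to Ube2s (0.85 ± 0.15 with the block), Cdc23 (0.55 ± 0.15) and Cdc26 (-0.49 ± 0.16), of which Ube2s alone passed. Cohesin and condensin II genes rose in 6 of 18 cases and fell in 1 in PSC4 (24.3% and 22% of all genes), a share called higher not far from that of all genes. The smallest p there belonged to Cdca5 (1.40), the sororin that protects cohesion, Ncapd3 (1.50) and Esco2 (1.21). The blocked KPC4 fit had 8 that rose and 1 that fell, and, by the unblocked test, Sgo1 (2.00), the guardian of centromeric cohesion, Sgo2a (1.49) and Rad21 (0.70) had the smallest p.

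Regulators of mitotic entry and exit rose in 14 of 24 cases in PSC4 (24.3% of all genes) and fell in 6, a share near the 22% of all genes called lower. Gtse1 (G2 and S phase expressed), which restrains p53, had the smallest p, at 35.9, 32.9 and 38.7 CPM with Control-SU and 575, 623 and 474 CPM with Gem-SU (log2 fold change 3.96 ± 0.18 (SE), edgeR adjusted p = 1.56e-05), far above any of the 56 in fold change. Bora, the activator of Aurora A, and Cdc25a, a phosphatase that frees CDKs, rose by 1.83 and 1.88. In KPC4 with the block 12 of the 24 rose and 0 fell, with Cdc25c (1.88), Mastl (1.43) and Plk4 (1.83) first by the unblocked test. Spindle, centrosome and cytokinesis genes outside the 56 rose in 16 of 28 cases and fell in 3 in PSC4 (24.3% and 22% of all genes), with Kif18b (2.45), Ckap2 (1.74) and Psrc1 (2.53) at the smallest p. In KPC4 with the block 17 rose and 0 fell, with Haus8 (1.17), Arhgap11a (1.56) and Knstrn (1.23) at the smallest p of the unblocked test.

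Genes that regulate mitotic transcription were 22 tested of 23 listed. In PSC4 12 rose and 2 fell (24.3% and 22% of all genes). The CDK inhibitor Cdkn1a, a p53 target, measured 47.6, 32.7 and 33.6 CPM with Control-SU and 972, 1103 and 774 CPM with Gem-SU (log2 fold change 4.64 ± 0.25 (SE), edgeR adjusted p = 1.93e-05), and the repressors E2f8 and E2f7 rose by 1.99 and 1.71. In KPC4 with the block 8 rose and 0 fell, and E2f2 (1.56) and the MuvB subunits Lin9 (1.73) and Lin52 (1.96) had the smallest p of the unblocked test. The 26 genes of the G1/S transition and S phase rose in 18 cases and fell in 1 in PSC4 (24.3% and 22% of all genes), with a median of 0.99. Rrm2, a ribonucleotide reductase subunit, measured 65.8, 42.6 and 57.3 against 462, 435 and 404 CPM (log2 fold change 2.97 ± 0.20 (SE), edgeR adjusted p = 4.04e-05), and Ccne1 (cyclin E) and Cdc6, which loads replication origins, rose by 2.60 and 2.20. In KPC4 with the block 24 rose and 0 fell, with a median of 1.30, and Cdt1 (1.58), Slbp (1.58) and Cdc45 (2.45) had the smallest p of the unblocked test.

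The mean log2 level of the 56 members, relative to the mean of the control libraries of the line, was -0.20, 0.12 and 0.073 in the PSC4 controls and 0.54, 0.67 and 0.80 with Gem-SU. In KPC4 it was -0.63, 0.86 and -0.23 in the controls and 1.37, 2.08 and 1.50 with Gem-PSC-SU. The G1/S and S phase genes stood at 0.13, -0.097 and -0.035 against 1.14, 0.99 and 1.04 in PSC4, and at -0.64, 0.92 and -0.28 against 0.77, 2.06 and 1.47 in KPC4. In KPC4 control replicate 2 was thus high in both lists, and above Gem-PSC-SU replicate 1 in the G1/S list but not in the members.

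**Figure D5:**
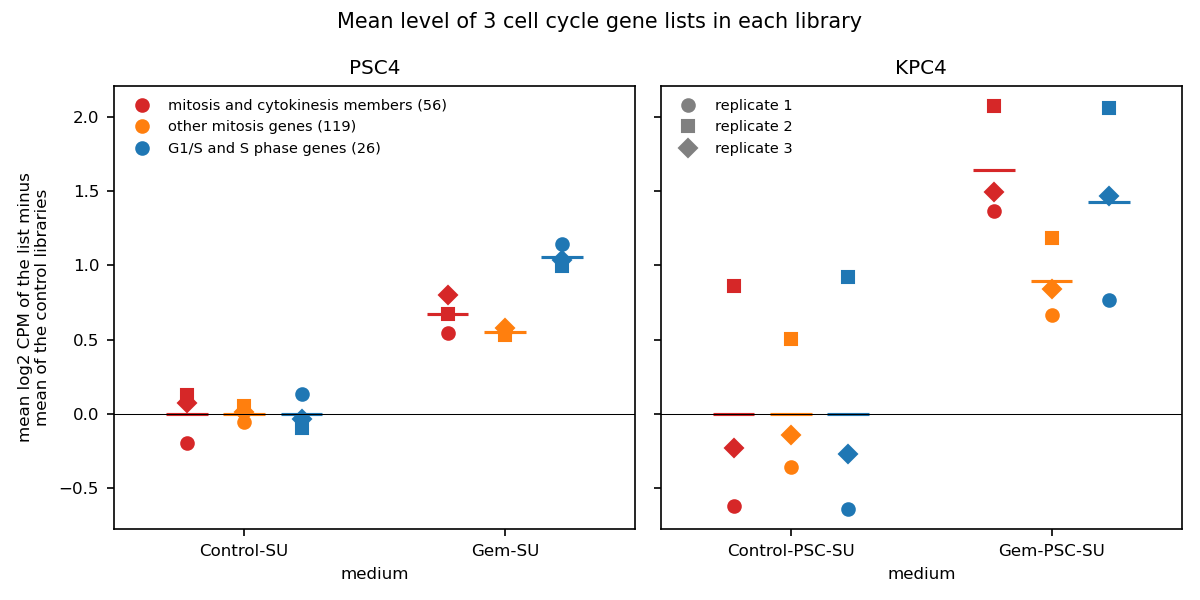
Mean log2 CPM of each list minus the mean of the control libraries of the line (vertical axis) for each library (points, shape by replicate number) and group mean (bars), for the 56 members (red), 119 further mitosis genes (orange) and 26 G1/S and S phase genes (blue). The PSC4 groups are apart for all 3 lists, and in KPC4 replicate 2 is the highest of its group in both media.

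Some marker genes of the cell types were called in PSC4. Of 14 stellate and fibroblast markers tested, 10 were called lower with Gem-SU and 0 higher, where 22% of all genes were called lower and 24.3% higher, and their summed level was 6726 to 8309 CPM in controls and 2257 to 3514 CPM with Gem-SU. Of 4 epithelial markers tested, Krt19 and Grhl2 were called higher and Krt7 and Krt8 did not pass, and the 4 summed to between 3.54 and 6.41 CPM in controls and between 11.6 and 15.5 CPM with Gem-SU. Of the 15 epithelial markers listed, 8 had a row in the PSC4 counts and 4 passed the filter on low counts. Epcam and Cdh1 were listed but not among those 4. Of the 2 leukocyte and endothelial markers tested, Kdr was called higher, and the pair summed to between 0.522 and 1.33 CPM in controls and between 2.36 and 4.40 CPM with Gem-SU. The part of these shifts in the change of the mitotic genes was not tested. In KPC4 no marker was called without the block, where 0% of all genes were called, so this does not show that marker levels were stable. The 12 epithelial markers summed to 6019 to 7472 CPM in controls and 6046 to 7529 CPM with Gem-PSC-SU, with Elf3 called higher with the block, and the 4 stellate and fibroblast markers to 37.4 to 44.6 CPM and 25.8 to 42.7 CPM. Relative to the control mean, the mean log2 level of the epithelial markers was 0.40, -0.53 and 0.13 in controls. With Gem-PSC-SU it was 0.36, -0.30 and 0.20, so replicate 2 was the lowest in both media. The part of this in the mitotic genes was not tested. The 3 leukocyte and endothelial markers summed to 0.978 to 2.04 CPM in controls and 1.71 to 4.71 CPM with Gem-PSC-SU.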

How the data were processed

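Total RNA of 12 libraries was sequenced, 3 biological replicates in each of 4 groups. The deposited count tables, 1 per line, hold whole-number counts per gene, named by Ensembl identifier. Per the submitters' processing notes, reads were handled with FastQC, Trim Galore 0.6.10, cutadapt 5.2 and Salmon, with build GRCm39 and R 4.5.1 with DESeq2. Separate deposited tables hold the authors' own log2 fold changes and adjusted p-values, used only where the authors' table is named. Salmon assigns reads to transcripts by estimation, so reads shared by near-identical genes are divided between them. Symbols were given to 99.7% of identifiers in each table from a gene name table, and no column of per-sample values was left unmapped.

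Genes were filtered with filterByExpr, scaled by TMM and tested with edgeR 4.0.16 (robust quasi-likelihood, R 4.3.3), 1 fit per line, with Benjamini-Hochberg adjustment over all genes at 0.05. The difference between the lines and between their controls came from 1 fit of 12 libraries over genes in both tables. That fit takes 1 spread per gene for both lines. CPM values use TMM-scaled library totals, and log2 CPM a prior count of 2. The script was tested on simulated data. Alternatives were DESeq2 1.42.0, limma-voom (limma 3.58.1), DESeq2 size factors, other filters, a fit of all libraries, the replicate block, and leaving out libraries. Library totals were 26354328 to 38138356, so p-values measure mainly the spread between replicates, which the labels call biological without naming cultures or days.

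Same-numbered libraries of the gemcitabine and control arms deviated together over all genes in KPC4 (r = 0.351, 0.436 and 0.211 for numbers 1, 2 and 3), and not in all cases in PSC4 (0.428, -0.0548 and 0.102). KPC4 results are therefore given with and without the block.

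The members and lists were chosen with earlier results of these data known. Values by library are given for 25 members named whatever their change, and for the 3 with the largest called change in each direction of each comparison; Incenp, Kif23 and, in KPC4, Pttg1 were added after their values were seen, and further members are named to complete their role group. Of each other list, the 3 genes of smallest p in each line are named. Promoter letters come from a RefSeq table of build GRCm38.p6, not the build of the counts, and their intervals are Wilson 95% intervals covering counting error only.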

Additional observations from a re-analysis of the deposited data

Results flagged for a closer look

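The change of 11 members differed between the lines by the interaction test, all lower in PSC4 than in KPC4, with edgeR adjusted p between 0.00305 and 0.0497. Kif18a differed by -2.21 ± 0.56 (SE) on the log2 scale, Ccnb2 by -2.09 ± 0.35 and Prr11 by -1.85 ± 0.54. In Kif18a and Ccnb2 the mean moved in opposite directions in the lines, lower with Gem-SU in PSC4 and higher with Gem-PSC-SU in KPC4. Groups of 3 libraries are too small for a test of single outlying values.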

How the results depend on the processing

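In PSC4 the number of members called, 33, stayed between 23 and 36 under every alternative tried, and the lowest was that of 1 fit of all 12 libraries. There Ccna2, Birc5, Kif11, Tpx2, Anln and Kif20a missed the threshold among the members followed through every alternative. The members near 0 in PSC4 changed sign: Top2a to -0.00820 with DESeq2 size factors and in DESeq2 and -0.046 in the fit of 12 libraries, Aurkb to -5.62e-04 in DESeq2 with the block and -0.036 in the fit of 12, and Prc1 to -0.029 in the latter. Leaving out 1 library gave -0.13 to 0.086 for Top2a, -0.12 to 0.11 for Aurkb, -0.12 to 0.13 for Prc1, -0.096 to 0.21 for Cdk1, -0.18 to 0.31 for Cenpf and -0.11 to 0.0023 for Plk1. In the fit with the replicate block, leaving out number 1, 2 and 3 in turn gave -0.15, 0.18 and -0.0080 for Top2a and -0.059, -0.069 and 0.14 for Aurkb. It gave -0.22 for Prc1 without number 1, and -0.12 for Cenpf and 0.032 for Plk1 without number 3. None of these values passed the test.

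In KPC4 the replicate block and the tool changed the count of members called higher: 0 in edgeR and in limma-voom, 48 with the block, 45 in DESeq2, 53 in DESeq2 with the block and 41 in the fit of 12 libraries. The fit of 12 libraries shares its spread per gene with PSC4. Leaving out 1 library gave 0 to 46, and leaving out a replicate number in the paired fit 13 to 55. The median log2 fold change was 1.29 to 2.20 over libraries left out and 1.52 to 1.95 over numbers left out. Library scaling and low-count filters left the count at 0. The cause of these differences was not tested.

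Of members whose change differed between the lines, 11 became 35 with the replicate block, 14 with DESeq2, 12 with DESeq2 size factors, and 2 to 36 without 1 library, with medians of -1.57 to -0.61. Kif18a and Prr11 missed the threshold without some libraries, with adjusted p up to 0.071 and 0.113, while Ccnb2 stayed at or under 0.0122. Of members lower in control KPC4, 34 became 18 to 52 without 1 library, with medians of -1.58 to -0.71. The CHR share in a window of 100 bases before to 50 after the start was 75.0% of member promoters and 8.68% of all. The lowest count of a member in any library was 163, so no member was near the filter on low counts. The effect of depth on single members was not tested.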
